A study of Mus musculus with 6 samples.

Results

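The junction and barrier genes of bone marrow endothelium were described here, in cells of diabetic and nondiabetic mice. The group held 9 genes chosen by name, Cdh5, Cldn5, Esam, F11r, Jam2, Jam3, Tjp1, Ocln and Plvap, of 22180 genes that had a probe set of their own on the array. Each of the 9 was read by exactly 1 probe set, so there was no second reading of any of them. All 9 lay above the limit used to leave out dim genes, a mean log2 value of 5.07, and were among the 13308 genes tested.

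Each sample was a sort of 5000 endothelial cells from the marrow of male C57BL/6J mice, and its total RNA was amplified and hybridised to 1 array. Diabetes had been brought on by fatty food in the mice of 3 arrays, the diabetic group, and 3 further arrays were of nondiabetic control mice. A diet of 60 kcal% fat eaten over 4 months is written on all 6 labels alike, which leaves the food of the control mice unsettled, and no age is given. Whether each array came from its own mouse or from pooled mice is not stated either, so the p-values speak of the spread among these arrays, some or all of which may be technical.

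Endothelial cells are held to each other by adherens junctions, built on VE-cadherin (Cdh5), and by tight junctions, built on claudins, occludin and the junctional adhesion molecules, which are tied to the actin cytoskeleton through scaffold proteins such as ZO-1 (Tjp1). These contacts govern how much fluid, protein and how many blood cells cross the vessel wall. The sinusoids of the marrow are a leaky bed through which newly made blood cells leave, while its arterioles are tighter. Plvap forms the diaphragms that span endothelial fenestrae, caveolae and transcellular channels and is widely used as a marker of such permeable vessels.

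Endothelial markers were high on every array. All 27 measured pan-endothelial marker genes, a list that holds none of the 9, passed the filter on dim genes, and Emcn, a sialomucin of venous and sinusoidal endothelium, had the highest mean of the list, at 10.57 ± 0.34 in diabetic and 10.75 ± 0.25 in nondiabetic cells (SD, n = 3 each; all levels are log2). The mean of that list per array was 9.38, 8.77 and 8.74 in diabetic replicates 1, 2 and 3, against 9.04, 9.21 and 8.83 in nondiabetic replicates 1, 2 and 3. Diabetic replicate 1 was therefore the highest array, followed by nondiabetic replicate 2. RNA of blood cells was present too. The mean of 9 megakaryocyte and platelet genes was 8.23, 8.15 and 9.22 in diabetic cells against 8.14, 7.92 and 8.98 in nondiabetic cells, so replicate 3 of either group carried the most. The mean of 12 monocyte and macrophage genes was 7.95, 7.79 and 7.75 in diabetic cells against 7.34, 7.66 and 7.37 in nondiabetic cells, without overlap.

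No junction or barrier gene passed the test for a difference between diabetic and nondiabetic cells. Limma called 0 of the 9 at an adjusted p under 0.05, and 0 of the 9 had an unadjusted p under 0.05. Over all tested genes the same rules called 0.00751% (1 gene, Rabggtb, named here after its value was seen, which is not one of the 9) and 4.25%. The lowest adjusted p among the 9 was 0.997. For 7 genes the diabetic mean was lower and for 2 it was higher. The diabetic mean was higher for 54.0% of all tested genes, the share to set beside such counts in the lists below as well. The median difference of the 9 was -0.096 on the log2 scale (diabetic minus nondiabetic), beside 0.019 over all tested genes. The groups overlapped for all 9 genes, so 0 were separated in either direction, where the groups were apart for 7.95% of all tested genes, with diabetic cells higher in 5.28% and lower in 2.67%.

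**Figure D1:**
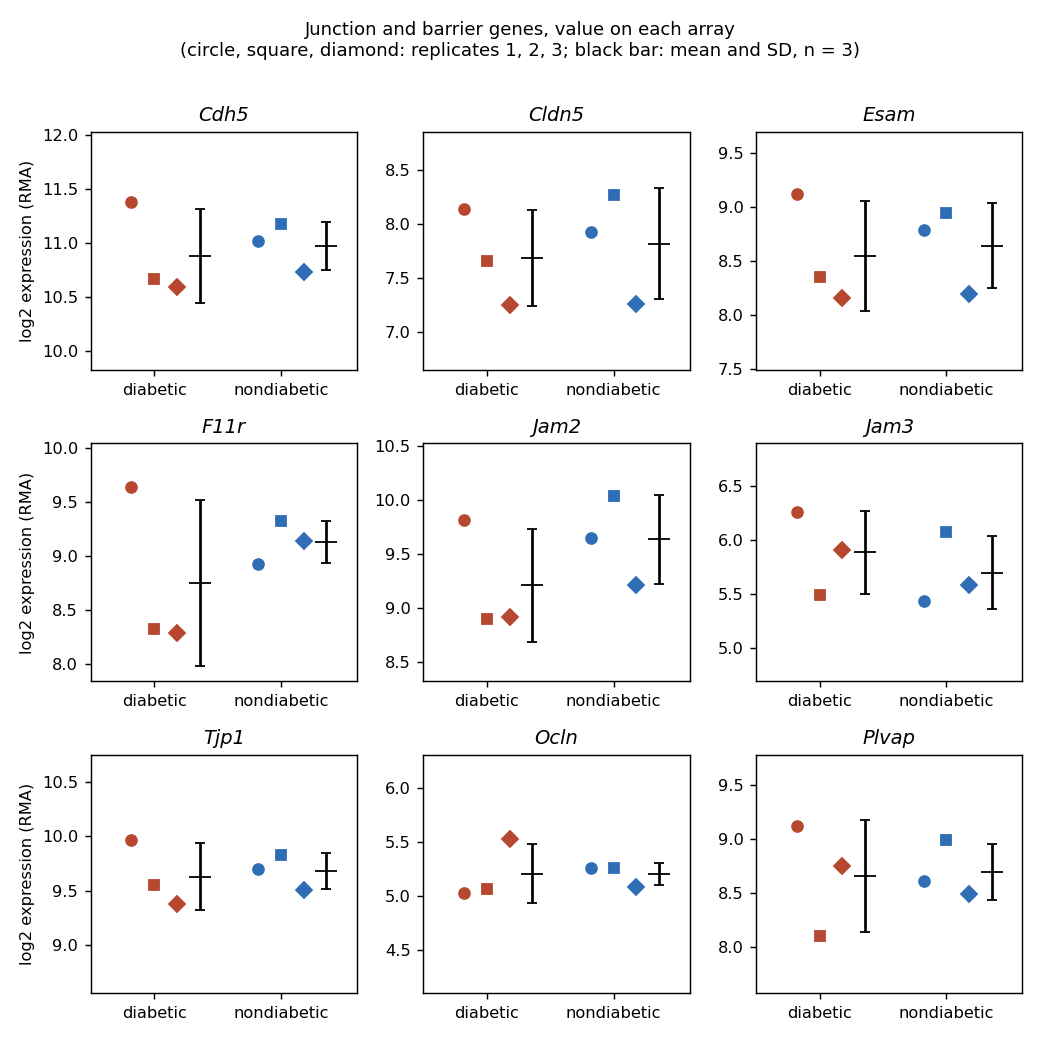
Log2 expression of the 9 junction and barrier genes on each array, with diabetic arrays on the left and nondiabetic arrays on the right of each panel, on axes of equal span centred on each gene. Circles, squares and diamonds are replicates 1, 2 and 3, and black bars are the mean and SD of 3 arrays. The groups overlap in every panel.

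Cdh5 encodes VE-cadherin, the endothelium-specific cadherin whose extracellular domains link neighbouring cells and whose tail binds the catenins. Its levels were 11.38, 10.67 and 10.60 in diabetic cells, against 11.02, 11.18 and 10.73 in nondiabetic cells. The highest array and the lowest array both belonged to the diabetic group, and the nondiabetic values lay between them. The difference was -0.096 (SE 0.24), with a 95% limma interval of -0.65 to 0.46 that was not adjusted for the number of genes.

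Cldn5 encodes claudin-5, the main strand-forming claudin of endothelial tight junctions, best known for the blood-brain barrier. It was at 8.14, 7.66 and 7.25 in diabetic cells and at 7.92, 8.27 and 7.26 in nondiabetic cells. Replicate 3 was the lowest array of either group, at almost the same level, and the groups overlapped over most of their range. The difference was -0.13 (SE 0.31), with an interval of -0.84 to 0.58. Esam, an immunoglobulin-type adhesion molecule of endothelial tight junctions that platelets, megakaryocytes and blood stem cells also carry, was at 9.12, 8.36 and 8.16 in diabetic cells and at 8.79, 8.95 and 8.20 in nondiabetic cells. Its difference was -0.10 (SE 0.29). In both groups the array with the most megakaryocyte and platelet signal, replicate 3, had the lowest Esam level. That array also had the lowest pan-endothelial mean of its group, at 8.74 in diabetic and 8.83 in nondiabetic cells. What part either had in the Esam level was not tested.

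The junctional adhesion molecules are immunoglobulin-type proteins that sit at the tight junction, bind each other across the cell border and serve as counter-receptors for leukocyte integrins. JAM-A (F11r) binds itself, while JAM-B (Jam2) and JAM-C (Jam3) bind each other. F11r and Jam2 showed the largest differences of the 9. Jam2 was at 9.81, 8.89 and 8.92 in diabetic cells, against 9.65, 10.03 and 9.21 in nondiabetic cells. Diabetic replicates 2 and 3 lay below all nondiabetic arrays, and diabetic replicate 1 lay among them. The difference was -0.42 (SE 0.30), with an interval of -1.12 to 0.27 and an adjusted p of 0.997 by limma, or 0.745 of the nondiabetic level. F11r had the same arrangement, with 9.64, 8.33 and 8.29 in diabetic and 8.92, 9.32 and 9.13 in nondiabetic cells. Its difference was -0.38 (SE 0.35), with an interval of -1.18 to 0.43. Both values moved by over 1.5 times when single arrays were left out. Without diabetic replicate 1 the difference was -0.73 (SE 0.25) for Jam2 and -0.82 (SE 0.17) for F11r, with unadjusted p-values of 0.025 and 0.0027 and limma adjusted p-values of 0.886 and 0.799, so neither was called. Without diabetic replicate 2 or 3 the differences were smaller, at -0.27 and -0.28 for Jam2 and -0.16 and -0.14 for F11r, and without nondiabetic replicate 2 that of Jam2 was -0.22. F11r is also a platelet protein. On the arrays with the most platelet signal it was at 8.29 in diabetic replicate 3, close to the 8.33 of diabetic replicate 2. In nondiabetic replicate 3 it was at 9.13, the middle nondiabetic level. Both arrays also had the lowest pan-endothelial mean of their group, and the part of platelets in the F11r level was not tested.

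Jam3 pointed the other way. It was at 6.26, 5.49 and 5.90 in diabetic cells and at 5.43, 6.08 and 5.58 in nondiabetic cells, with a difference of 0.19 (SE 0.25) and an interval of -0.38 to 0.76. Without diabetic replicate 1 the difference was 0.0036, and without diabetic replicate 2 it was 0.39. The levels of both groups were interleaved, and neither Jam2 nor Jam3 differed by more than its spread.

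Tjp1 encodes ZO-1, the scaffold whose PDZ domains bind the tails of claudins and junctional adhesion molecules and which also binds occludin and actin. Its levels were 9.97, 9.55 and 9.37 in diabetic and 9.70, 9.83 and 9.50 in nondiabetic cells. It varied least of the genes that lay well above the dim limit, with an SD over the 6 arrays of 0.22, and the difference was -0.049 (SE 0.20). Its interval, -0.50 to 0.40, was among the narrowest. Ocln encodes occludin, a membrane protein of tight junctions that is more typical of epithelia and of brain endothelium. It stood at 5.03, 5.07 and 5.53 in diabetic and 5.26, 5.26 and 5.09 in nondiabetic cells, all close to the dim limit of 5.07, near which a probe set may show background alone. Its difference was 0.0069 (SE 0.18).

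Plvap, the diaphragm protein, was at 9.12, 8.10 and 8.75 in diabetic cells against 8.61, 8.99 and 8.49 in nondiabetic cells. The diabetic arrays held both extremes. The difference was -0.039 (SE 0.27), with an interval of -0.67 to 0.59, and with array weights it was -0.38 (SE 0.26), with a limma adjusted p of 0.709. A list of 13 sinusoidal genes without Plvap had a mean of 8.70, 8.19 and 8.10 in diabetic against 7.75, 7.67 and 7.54 in nondiabetic cells, with no overlap. In that list 11 genes had higher and 2 lower diabetic means and 0 were called. Before adjustment 8 of the 13 had a limma p under 0.05, beside 4.25% of all tested genes. For 7 of the 13 all diabetic values lay above all nondiabetic values, beside 5.28% of all tested genes. The difference between Plvap and this list was not tested.

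**Figure D2:**
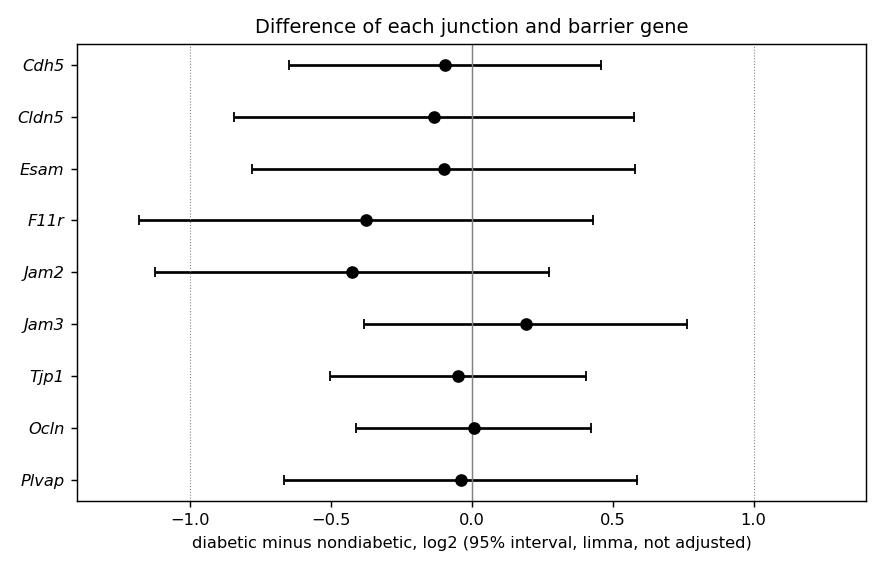
Difference of each gene between diabetic and nondiabetic cells on the log2 scale, with 95% limma intervals from 3 against 3 arrays that are not adjusted for multiple tests; dotted lines mark differences of -1 and 1. All intervals hold 0, and those of F11r and Jam2 alone pass a dotted line, at -1.18 and -1.12.

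For 7 of the 9 genes the interval lay within a log2 difference of 1 in either direction, the exceptions being F11r and Jam2, whose lower bounds were -1.18 and -1.12. Smaller shifts could not be told from the spread of 3 arrays against 3. The within-group SD of 8 of the 9 genes was above the median of all tested genes, 0.24, and reached 0.56 for F11r.

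Across the arrays 8 of the 9 genes shared the pair of arrays on which they were highest. Cdh5, Cldn5, Esam, F11r, Jam2, Jam3, Tjp1 and Plvap each had diabetic replicate 1 and nondiabetic replicate 2 on top, with nondiabetic replicate 2 the higher of the pair for Cldn5 and Jam2. The same pair was on top for 13.1% of all tested genes. Below that pair the order of the arrays differed between genes. Diabetic replicate 2 or 3 was the lowest array for 7 of the 9 genes and for 35.2% of tested genes. Ocln did not share the pair and had diabetic replicate 1 as its lowest array. Of the pan-endothelial markers 18 of 27 also had those same arrays highest. In a bulk sort, a smaller share of endothelial cells and less RNA of a gene per endothelial cell cannot be told apart.

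**Figure D3:**
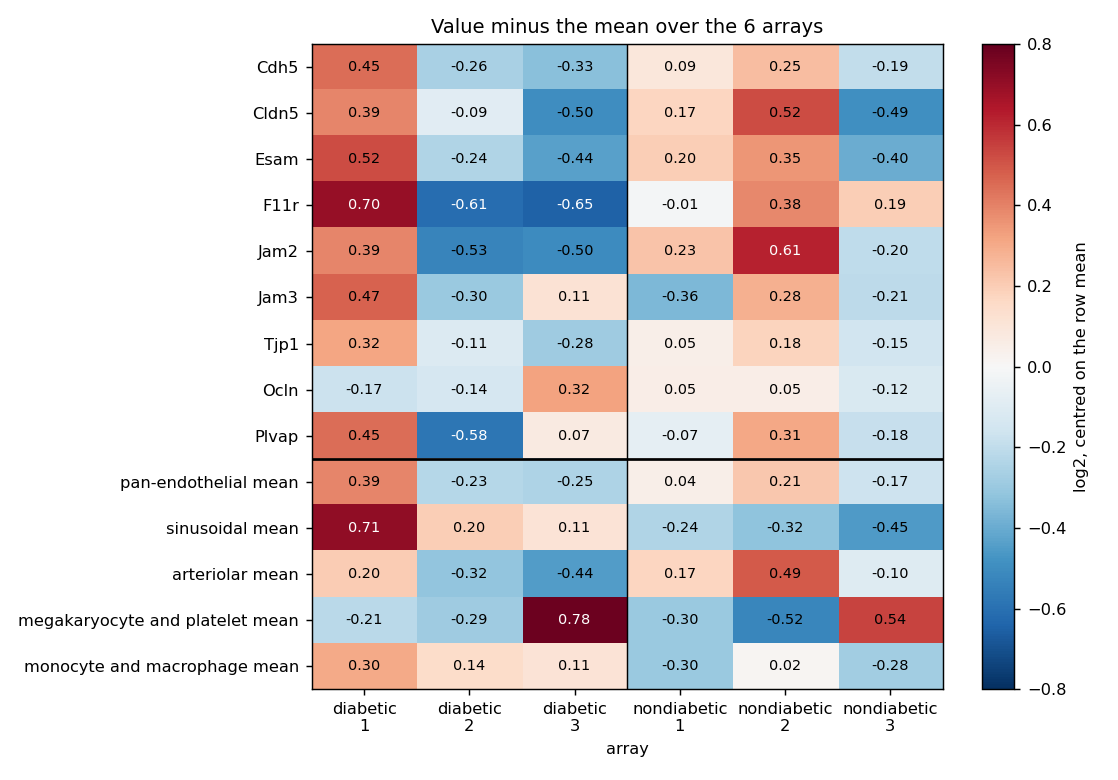
Log2 value of each junction and barrier gene (rows above the line) and the mean of each marker list (rows below it) on each array, minus the mean over the 6 arrays. The column of diabetic replicate 1 is raised for every gene but Ocln, by 0.32 for Tjp1 to 0.70 for F11r, beside 0.39 for the pan-endothelial mean; the sinusoidal mean is the one shown that is higher in all diabetic arrays together with that of monocytes and macrophages.

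Subtracting the pan-endothelial mean of the same array from each gene showed how closely the genes followed it. The SD over the 6 arrays dropped to 0.056 for Cdh5 after the subtraction, against 0.31 as deposited, and to 0.068 for Tjp1, against 0.22. For Esam it was 0.17 after and 0.41 before, for Plvap 0.22 and 0.37, for Jam2 0.26 and 0.48, for Cldn5 0.24 and 0.44, and for F11r 0.34 and 0.54. Jam3 narrowed least, to 0.25 after and 0.34 before. The spread thus became smaller for 8 of the 9 genes, and for 26.3% of all tested genes, whose median SD was 0.33 after and 0.24 before. Among the lists of related genes described below, the median SD also fell for adherens junction genes (0.22 after, 0.32 before). It fell likewise for barrier-stabilising (0.22, 0.30) and caveola and vesicle genes (0.22, 0.33). For other tight junction genes (0.32 after, 0.21 before) and barrier-loosening genes (0.29, 0.18) it rose. The pan-endothelial mean itself held Pecam1 and Ptprb of the adherens junction list and Kdr of the loosening list. It also held Tek, Tie1, S1pr1, Robo4, Erg and Sox18 of the stabilising list. The narrowing of the adherens junction and stabilising lists was thus partly built in. Ocln widened, to 0.37 after the subtraction, against 0.18 as deposited. Without diabetic replicate 1, too, 8 of the 9 genes and 24.6% of tested genes narrowed, Cdh5 to 0.053 after, against 0.25 before.

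**Figure D4:**
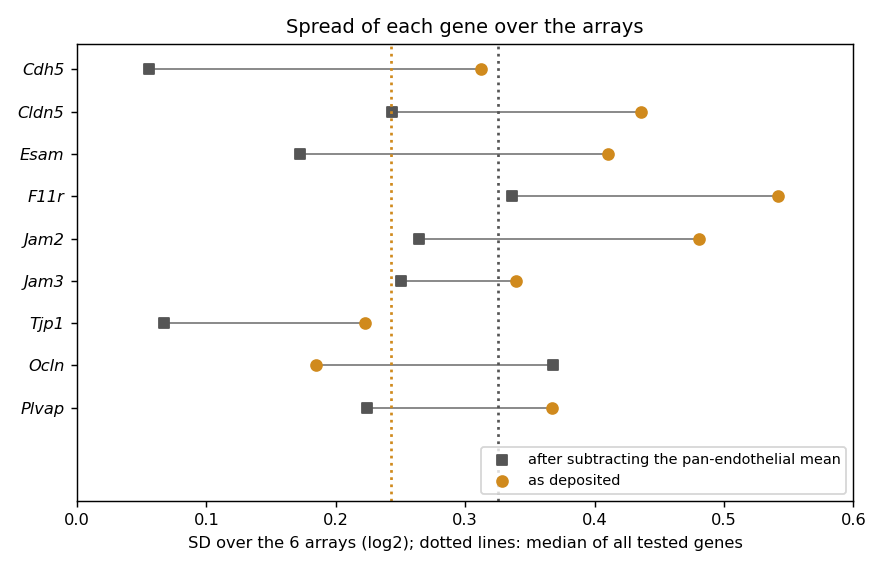
SD over the 6 arrays of each gene after subtracting the pan-endothelial mean of the array (squares) and as deposited (circles), in log2 units; dotted lines are the medians of all tested genes in the same colours. After the subtraction Cdh5 and Tjp1 have the smallest SDs, 0.056 and 0.068, and Ocln is the one gene that widens.

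Relative to the endothelial markers of the same array, Cdh5 stood at 2.00, 1.90 and 1.85 in diabetic cells and at 1.98, 1.97 and 1.91 in nondiabetic cells, with overlap. Tjp1 was at 0.59, 0.78 and 0.63 in diabetic and 0.66, 0.62 and 0.68 in nondiabetic cells. The junctional adhesion molecule genes kept the larger differences on this scale. Jam2 was at 0.43, 0.13 and 0.17 in diabetic cells against 0.61, 0.83 and 0.39 in nondiabetic cells, and the overlap rested on diabetic replicate 1 and nondiabetic replicate 3. F11r was at 0.25, -0.44 and -0.46 in diabetic and -0.11, 0.11 and 0.31 in nondiabetic cells. With that mean as a covariate in the limma fit, the differences were -0.33 (SE 0.14) for Jam2 and -0.27 (SE 0.20) for F11r, with adjusted p-values of 0.926 and 0.944.

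The members differed in which vessel list they followed. The root mean square difference over the 6 arrays, after each profile was centred on its own mean, was 0.14 between Jam2 and the mean of 17 arteriolar genes and 0.24 between Jam2 and the pan-endothelial mean. For Cdh5 these were 0.16 and 0.051, and for Tjp1 0.18 and 0.062. Cldn5 was about as far from either, with 0.20 and 0.22, as was F11r with 0.29 and 0.31. Plvap lay nearer to the pan-endothelial mean, at 0.20, than to the arteriolar mean, at 0.29, or the sinusoidal mean, at 0.44. The arteriolar mean itself was 8.06, 7.54 and 7.41 in diabetic cells against 8.03, 8.35 and 7.75 in nondiabetic cells, and 16 of its 17 genes had lower diabetic means, with 0 called. These distances describe 6 arrays and carry no test.

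Over all tested genes, those with the profile closest to Cdh5 were Ctsa, a lysosomal carboxypeptidase, Gpr108 and Prkci, an atypical protein kinase C of the cell polarity complex, with root mean square differences of 0.029, 0.046 and 0.048 over the 6 arrays. Those closest to Plvap were Efr3b, Eif3l, a subunit of a translation initiation factor, and Ube2h, a ubiquitin-conjugating enzyme, with 0.070, 0.076 and 0.094. Prkci was at 7.28, 6.67 and 6.51 in diabetic and 7.05, 7.11 and 6.71 in nondiabetic cells. These matches were picked from all tested genes over 6 arrays and carry no test.

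Upstream sequence was at hand for only 4 of the 9 genes in the RefSeq table of assembly GRCm38.p6, and is shown for these. Cldn5, F11r and Tjp1 shared the pair of highest arrays described above, while Ocln, near the dim limit, did not. A link between sequence and array pattern was not tested. Each line gives the 250 bases before the gene's start, read 5′ to 3′ on the gene's strand, with motif matches in capitals. The start was that of the gene's first entry in the RefSeq table, and any other start site was not looked at. Both strands were searched. The core of ETS factors, the family of the endothelial regulator Erg, was spelled GGAAG, and the box of Sp1-type factors was spelled GGGCGG. The box bound by NF-Y was spelled CCAAT, while for the E-box the palindrome of Myc-type factors, CACGTG, was used. Of the remaining elements, the one placed before many start sites was spelled TATAAA, while the core of forkhead factors was spelled TGTTTAC. No match overlapped one of another motif.
Cldn5 promoter, chr16:18776597-18776846, plus strand: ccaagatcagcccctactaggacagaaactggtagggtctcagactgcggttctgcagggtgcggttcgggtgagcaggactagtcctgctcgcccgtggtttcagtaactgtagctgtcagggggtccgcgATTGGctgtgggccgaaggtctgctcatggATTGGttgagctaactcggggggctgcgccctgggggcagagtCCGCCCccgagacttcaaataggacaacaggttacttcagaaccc
F11r promoter, chr1:171437311-171437560, plus strand: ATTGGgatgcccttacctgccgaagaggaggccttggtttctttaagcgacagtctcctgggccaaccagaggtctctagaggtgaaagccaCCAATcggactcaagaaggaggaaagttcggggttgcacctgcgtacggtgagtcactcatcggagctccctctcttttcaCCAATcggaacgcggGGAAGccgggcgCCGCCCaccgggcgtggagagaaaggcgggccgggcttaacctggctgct
Tjp1 promoter, chr7:65371245-65371494, minus strand: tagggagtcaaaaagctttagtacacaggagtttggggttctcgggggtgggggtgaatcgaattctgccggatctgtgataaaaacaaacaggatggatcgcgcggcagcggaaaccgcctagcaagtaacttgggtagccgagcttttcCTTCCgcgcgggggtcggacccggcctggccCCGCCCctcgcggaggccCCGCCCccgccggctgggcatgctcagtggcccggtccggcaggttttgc
Ocln promoter, chr13:100552719-100552968, minus strand: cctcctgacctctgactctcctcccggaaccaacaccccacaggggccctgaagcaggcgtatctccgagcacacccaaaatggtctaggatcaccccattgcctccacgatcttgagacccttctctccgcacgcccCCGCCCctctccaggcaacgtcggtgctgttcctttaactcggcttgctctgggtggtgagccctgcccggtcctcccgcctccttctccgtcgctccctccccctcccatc

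All of these windows held the Sp1 box, with 2 matches in Tjp1 and 1 in each other, where 32.7% of the 32851 windows of the table had one. F11r held 3 and Cldn5 held 2 NF-Y boxes, against 0 in Tjp1 and Ocln, and 33.8% of all windows had at least 1. The ETS letters occurred 1 time each in F11r and Tjp1 and were not found in Cldn5 and Ocln, in these windows, beside 64.1% of all windows. The E-box, TATAAA and forkhead letters were found in none of the 4 windows, beside 6.02%, 12.4% and 3.17% of all windows. GC content was 59.6% for Cldn5, 60% for F11r, 63.2% for Tjp1 and 64% for Ocln. That of all windows was not computed, and the bearing of GC content on the Sp1 box counts was not tested.

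None of the listed partners of these proteins passed the test. A list of 14 tested genes of the adherens junction had 3 with higher and 11 with lower diabetic means, a median difference of -0.12 beside 0.019 for all tested genes, and 0 called. Among them the catenin genes that link VE-cadherin to actin, singled out with their values in view, differed by -0.24 (Ctnnb1, beta-catenin), -0.0059 (Ctnna1), 0.16 (Ctnnd1, p120) and -0.15 (Jup, plakoglobin). Ptprb, the phosphatase VE-PTP that binds VE-cadherin and the member with the highest mean, was at 10.49 ± 0.27 in diabetic and 10.78 ± 0.29 in nondiabetic cells (SD, n = 3 each). The smallest p-values were those of Nectin3, with a difference of -0.32 (SE 0.23), and Ptprm, a homophilic receptor phosphatase, with -0.47 (SE 0.35). Leaving out single arrays moved Nectin3 to between -0.54 (without diabetic replicate 1) and -0.21 (without diabetic or nondiabetic replicate 2). For Ptprm the values were -0.79 and -0.17 when diabetic replicate 1 or 3 was left out, and -0.28 and -0.73 when nondiabetic replicate 1 or 3 was. Without diabetic replicate 1 the median of this list was -0.38 and that of the 9 junction and barrier genes -0.34, and without diabetic replicate 3 they were 0.077 and 0.046, so the direction turned with single arrays.

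For other genes of the tight junction and its polarity complexes the differences lay on both sides of 0. Of 16 tested genes 9 had higher and 7 lower diabetic means, with a median of 0.024 and 0 called. Cxadr, an adhesion molecule related to the JAM proteins, was at 6.44 ± 0.23 in diabetic and 6.00 ± 0.40 in nondiabetic cells (SD, n = 3 each). Its difference was 0.44 (SE 0.23), and 0.21 without nondiabetic replicate 1. Mpdz, a multi-PDZ scaffold, differed by 0.48 (SE 0.31), and by 0.15 without diabetic replicate 1 or 0.79 without diabetic replicate 3. Ybx3, a Y-box factor that binds ZO-1 and had the highest mean, differed by -0.074 (SE 0.17). Diabetic replicate 1 and nondiabetic replicate 2 were the highest arrays of 2 of the 16 genes, beside 13.1% of all tested genes.

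Genes that stabilise or loosen the endothelial barrier had medians of 0.036 for 19 and -0.013 for 17 tested genes, with 0 called in either list. Diabetic means were higher for 13 and lower for 6 stabilising genes, and higher for 8 and lower for 9 loosening genes. Ccm2, an adaptor of the cerebral cavernous malformation complex at endothelial junctions, had the smallest p-value of the stabilising list. It was at 7.07, 7.16 and 6.92 in diabetic cells against 6.26, 6.50 and 6.84 in nondiabetic cells, without overlap. The difference was 0.52 (SE 0.19), with a limma p of 0.024 before adjustment and 0.997 after it. Ccm2 was the 1 gene of the 19 with an unadjusted limma p under 0.05, beside 4.25% of all tested genes. Ccm2 was also the 1 gene of the 19 whose groups were apart, beside 7.95% of all tested genes. Its partners in that complex, Krit1 and Pdcd10, named after their values were seen, differed by -0.016 and 0.052. Heg1, the receptor that recruits the complex to junctions, differed by -0.36 (SE 0.24), by -0.57 without diabetic replicate 1, -0.23 without diabetic replicate 2, -0.18 without nondiabetic replicate 2 and -0.12 as the mean of its probe sets. The small GTPase gene Rap1b, the brightest of the list, differed by 0.030 (SE 0.16). Among loosening genes, the calcium channel gene Trpc6 differed by -0.53 (SE 0.33), which was -0.24 without diabetic replicate 1 and -0.92 without diabetic replicate 3. Angiopoietin-2 (Angpt2) differed by 0.42 (SE 0.30), and by 0.096 without diabetic replicate 1. Rhoa, the brightest, differed by -0.013 (SE 0.16).

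Caveola and vesicle genes, which share with Plvap the transcellular route, had 6 higher and 4 lower of 10 tested genes, a median of 0.032 and 0 called. Ehd4 and Ehd2, ATPases of membrane traffic, of which Ehd2 sits at the neck of caveolae, had the smallest p-values and differed by 0.16 (SE 0.18) and -0.22 (SE 0.26). Single arrays moved both: Ehd4 was at 0.023 without nondiabetic replicate 3 and 0.25 without diabetic replicate 3 or nondiabetic replicate 1. Ehd2 was at -0.52 without diabetic replicate 1, with a limma p of 0.017 before and 0.884 after adjustment, and at -0.029, -0.099 and -0.14 without diabetic replicate 2, diabetic replicate 3 and nondiabetic replicate 2. Cavin2, a coat protein of caveolae and the brightest of the list, differed by 0.20 (SE 0.25). Of these 10 genes 5 had diabetic replicate 1 and nondiabetic replicate 2 as their highest arrays, beside the same 13.1%. The same pair was highest for 5 of the 14 adherens junction genes, 8 of the 19 stabilising genes and 7 of the 17 loosening genes. The adherens junction, stabilising and loosening lists share genes with the pan-endothelial list, as given above.

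**Figure D5:**
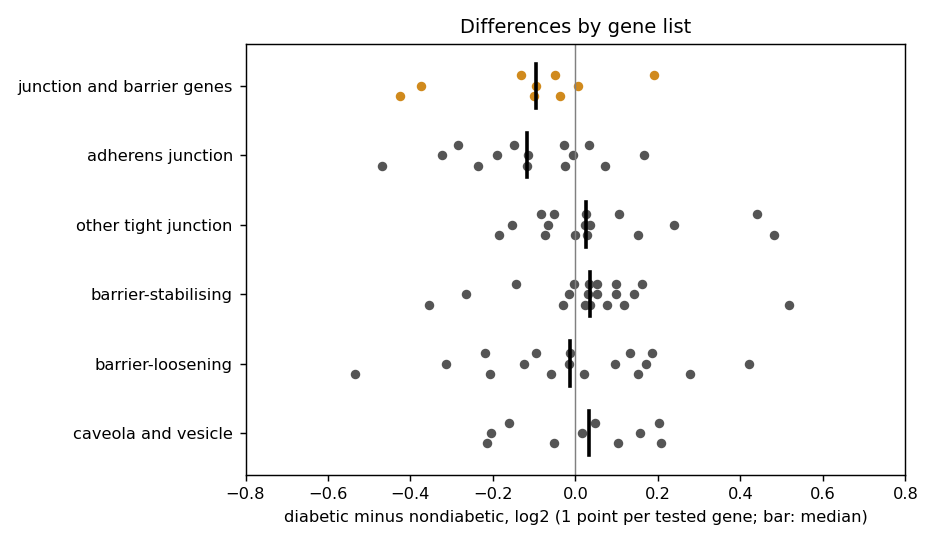
Difference between diabetic and nondiabetic cells on the log2 scale for every tested gene of the 9 junction and barrier genes and of the 5 lists of related genes; each point is 1 gene and each bar the median of its list. The medians lie between -0.12 and 0.036, and 0 genes shown were called by limma.

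Markers of other cells that express some of these genes are given as levels. In the megakaryocyte and platelet list, the brightest gene Ppbp was at 11.39 ± 0.49 in diabetic and 11.32 ± 0.47 in nondiabetic cells (SD, n = 3 each, as for the other genes here). The brightest stem and progenitor gene, Myb, was at 9.10 ± 0.19 and 8.66 ± 0.09, and the brightest of 6 tested epithelial genes, Cdh1, at 8.40 ± 0.24 and 8.44 ± 0.83, in diabetic and nondiabetic cells. Esrp1, Cldn7 and Krt19 of the epithelial list were left out as dim, as were Lepr, Pdgfra, Lum, Dcn and Sp7 of the stromal list. So were Camp, Ltf, Retnlg and Mmp8 of the neutrophil list, Adgre1 of the monocyte list, and Vpreb1 and Ms4a1 of the B lymphoid list. The T and NK list lost Cd3d, Cd3e, Cd3g, Cd8a and Gzma in this way. The means of 9 neutrophil and 8 B lymphoid genes were higher in diabetic cells by 0.39 and 0.34. Those of 10 stem and progenitor, 8 erythroid, 11 stromal and pericyte, 6 epithelial and 4 T and NK lymphoid genes differed by -0.048, -0.11, 0.035, -0.043 and -0.17. Their part in the levels of the junction and barrier genes was not tested.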

How the data were processed

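The authors deposited log2 expression values for probe sets. The submitters' processing notes name RMA, a method that corrects background, brings arrays to one distribution and sums up the probes of a set. Its software, version and annotation were not given in the sources used here. The array medians lay between 5.21 and 5.28, and the correlations between arrays over tested genes between 0.929 and 0.954. The number of arrays limits the precision.

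Of 41345 probe sets, 23521 named 1 gene in the supplied platform annotation, which can be old. Each of 22180 genes took its brightest such probe set by the mean over the 6 arrays, symbols were updated to RefSeq by gene number, and genes below the 40th percentile were left out as dim. The difference between groups was fitted by limma 3.58.1 under R 4.3.3 (lmFit and eBayes, no covariates), adjusted by Benjamini and Hochberg over all 13308 tested genes, with a threshold of 0.05. Differences are diabetic minus nondiabetic. The procedure was run on simulated data with independent noise for each gene, whereas many genes moved together on these arrays. That run does not bear on whether differences were missed among the 9 genes. Genes named were the 9 members, in each of 5 pathway lists the brightest gene and the pair with the smallest p, in each marker list the brightest gene where given, and the closest profiles to Cdh5 and Plvap (predicted genes and small RNAs passed over). The members and lists were chosen with earlier results of these data known. Listed genes without a probe set of their own were not analysed here. Alternatives were other filters, the mean of probe sets, renewed quantile normalization, median centring, a trend with robust variances, weights per array, a replicate block, the pan-endothelial mean as a covariate, and leaving out each array in turn.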

Additional observations from a re-analysis of the deposited data

How the results depend on the processing

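Under all 15 alternatives 0 of the 9 junction and barrier genes were called (lowest limma adjusted p 0.567, for Jam2 with array weights), and Jam2 and F11r stayed lower in diabetic cells, with differences of -0.73 to -0.22 and -0.82 to -0.14. The signs of the other 7 were not stable. Other filters, the mean of probe sets, the trend with robust variances and the replicate block leave each member's difference unchanged by construction. They bear only on its p-value, so the stable direction of Jam2 and F11r rests on the remaining alternatives. Leaving out each array in turn, the differences ranged from -0.34 to 0.046 for Cdh5, -0.41 to 0.094 for Cldn5, -0.39 to 0.093 for Esam, 0.0036 to 0.39 for Jam3, -0.22 to 0.080 for Tjp1, -0.15 to 0.096 for Ocln and -0.27 to 0.24 for Plvap. Of the related genes, those for Ybx3 ranged from -0.22 to 0.00016, for Rap1b from -0.035 to 0.12, for Rhoa from -0.075 to 0.063 and for Cavin2 from -0.017 to 0.44. Medians of the related lists ranged from -0.38 to 0.077 (adherens junction), -0.044 to 0.081 (other tight junction), -0.054 to 0.094 (stabilising), -0.057 to 0.063 (loosening) and -0.096 to 0.14 (caveola and vesicle). With array weights Jam3, Ocln and Cavin2 reversed to -0.052, -0.072 and -0.10, and Plvap was at -0.38. With the pan-endothelial covariate Tjp1, Ocln, Plvap and Rhoa reversed to 0.00093, -0.0076, 0.029 and 0.010. Rap1b reversed to -0.011 with the mean of its probe sets and to -0.028 with renewed quantile normalization. The cause was not tested. The 60th percentile filter left 7 of the 9 genes and called 0 genes in all; leaving out single arrays, 0 to 1 genes were called, 0 without nondiabetic replicate 3. The labels give both groups replicate numbers 1 to 3, and whether these numbers pair the samples could not be settled. Deviations from the group means correlated at -0.036, -0.064 and 0.016 for same-numbered arrays, and 1 of 6 arrays correlated best with its own number. With 3 arrays per group the deviations sum to 0 within each group, so this check cannot decide whether arrays were paired. The replicate block is balanced over the groups and cannot change a difference, so that of Jam2 stayed at -0.42 by construction. Its SE was 0.27 with the block and 0.30 without it, and 1 gene in all was called either way. This does not decide the pairing either. Signal near the dim limit of 5.07 restricts what Ocln can show.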
